A study of Mus musculus with 72 samples.

Results

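The response of the suprachiasmatic nucleus (SCN) to a methionine- and choline-deficient (MCD) diet was examined at circadian time 4 (CT04), as 3 MCD against 3 control libraries chosen by the tissue, diet and time in their labels. These 6 libraries are part of 36 SCN libraries and of 72 in the series, which also holds liver. Mice were C57BL/6, 8 to 12 weeks old, housed singly and kept for 11 days on MCD food or on a control food with the same energy content. Both groups lived in a light-dark cycle for 10 days and in constant darkness on the last day, when they were killed. Within each group, replicates 1 and 2 were labelled male and replicate 3 female. The protocol text speaks of male mice only. SCN tissue was cut with a laser from brain sections stained with toluidine blue, and polyadenylated RNA was sequenced with a stranded kit. The labels do not say whether each library came from a separate mouse, and the p-values then measure only the spread between these libraries, which may be technical.

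The SCN, a small paired nucleus of the hypothalamus above the optic chiasm, is the central circadian pacemaker of mammals. In its neurons CLOCK and BMAL1 (gene Arntl) drive the Per and Cry genes, whose proteins then repress CLOCK and BMAL1, and the neuropeptides VIP and AVP couple the cells. Methionine is turned into S-adenosylmethionine, the methyl donor for DNA, RNA, histone and phospholipid methylation, by methionine adenosyltransferase, whose catalytic subunit outside the liver is encoded by Mat2a. Choline, through betaine, is another source of methyl groups and a building block of phosphatidylcholine.

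The 6 libraries held 25.26 to 79.81 M counts over 15759 genes. The 2 female libraries stood apart from the 4 male ones. They held 25.26 and 27.53 M counts against 45.64 to 79.81 M, they listed 538 (control 3) and 767 (MCD 3) genes at 0 against 17 to 24, and their median correlation with the other SCN libraries was 0.8654 and 0.8853 against 0.9606 to 0.9664. Xist was at 1447 and 1238 CPM (the usual depth-scaled count unit, here on TMM-scaled totals) in the females and at 0 to 1.63 CPM in the males. The Y-linked Ddx3y was at 86.5 to 124.3 CPM in the males, at 0 in control 3 and at 4.01 CPM in MCD 3. Vip and Avp, which define SCN neurons, were at 824.5 CPM or more and 690.6 CPM or more in every one of the 6 libraries, so the labelled tissue was present in all of them.

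On MCD 7 of the 15759 genes rose at CT04 and none fell (edgeR quasi-likelihood F test, Benjamini-Hochberg adjusted p under 0.05), a share of 0.0444% of the genes tested. The 7 were Rnf8, Lrrc8a, Tsc22d3, Rhou, Agt, Tob2 and Txnip, with log2 changes of 0.47 to 1.18. At an unadjusted p under 0.05 there were 453 genes higher (2.87%) and 406 lower (2.58%), which is 5.45% in all. DESeq2 called 20 genes, 13 higher and 7 lower, of which Sftpc, Scd4 and E130102H24Rik had fitted log2 values of -24.5 to -23.3, and limma-voom called 4, all higher. With the replicate number as a block over 34 libraries, 4 of the 7 (Rnf8, Lrrc8a, Tsc22d3 and Tob2) remained called. On the 6 CT04 libraries alone edgeR called 0 genes, with the block and without it. Without both female libraries edgeR called 0 genes, with 318 at an unadjusted p under 0.05. Left out in turn, control 1, 2 and 3 gave 1, 1 and 0 calls, and MCD 1, 2 and 3 gave 2, 8 and 0. Of the 2 without MCD 1, 1 was among the 7 (Rnf8), and of the 8 without MCD 2, 4 were (Rnf8, Lrrc8a, Tsc22d3 and Agt), while Lgi2 and Fsd1l among the 8 were lower on MCD.

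**Figure D1:**
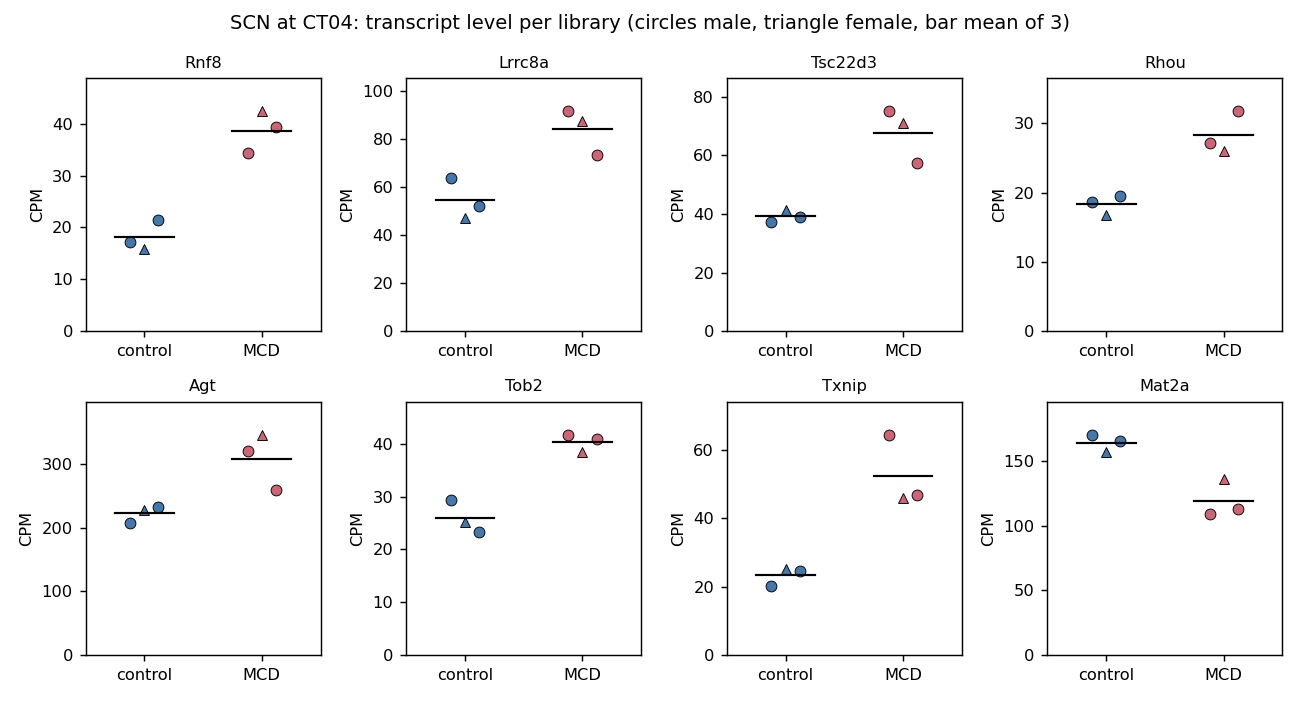
Level in CPM (vertical axis) of the 7 genes called at CT04 and of Mat2a in each of the 6 libraries, by diet. Circles are males, triangles females and bars the mean of 3; in the 7 called genes every MCD library lies above every control library, and in Mat2a every MCD library lies below.

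Txnip encodes thioredoxin-interacting protein, which binds thioredoxin and limits glucose uptake, and whose transcript is known to follow glucose supply through a carbohydrate response element. It lies at chr3:96557957-96561883 (GRCm38, GENCODE M21, plus strand). Its level was 20.2, 24.7 and 25.1 CPM in control 1, 2 and 3 and 64.4, 47.0 and 45.9 CPM in MCD 1, 2 and 3. The 3 MCD libraries were all above the 3 controls, with MCD 1 the highest. The log2 change was 1.18 ± 0.23 (SE, adjusted p = 0.0414), the largest among the 7. With the replicate block the adjusted p was 0.0809.

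Tsc22d3 encodes GILZ, a leucine zipper protein that is a standard transcript marker of glucocorticoid receptor activity. It lies on the minus strand at chrX:140539528-140600659. It was at 37.2, 38.9 and 41.5 CPM in the controls and at 75.0, 57.4 and 71.0 CPM on MCD. The lowest MCD library, MCD 2, was still above the highest control. The log2 change was 0.79 ± 0.14 (adjusted p = 0.0306).

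Rnf8 encodes a ubiquitin ligase that marks chromatin beside DNA double-strand breaks, and lies at chr17:29614790-29644991 on the plus strand. It had the lowest adjusted p, with 17.2, 21.4 and 15.8 CPM in the controls and 34.3, 39.3 and 42.4 CPM on MCD, a log2 change of 1.10 ± 0.17 (adjusted p = 0.00757). The size of this change depended on how the reads were counted. When the authors' exon-bin counts of the same libraries were summed per gene, Rnf8 was at 7.51 ± 0.66 CPM of the bin total in the controls and at 9.38 ± 0.39 on MCD (SD, n = 3 each). That is a log2 ratio of 0.32, against 1.09 for the ratio of means in the gene table, although the groups still did not overlap. The bins held 36.8% to 50.1% of the gene-table level in the controls and 21.9% to 26.4% on MCD. The annotated genes Gm28043 and Gm28052 overlap Rnf8 on the same strand, so its gene-table level is uncertain, and their part in the difference was not tested.

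Lrrc8a encodes the subunit that every volume-regulated anion channel needs, and lies at chr2:30237715-30263790 on the plus strand. It was at 63.9, 52.0 and 47.2 CPM in the controls and at 91.5, 73.5 and 87.5 CPM on MCD, a log2 change of 0.63 ± 0.10 (adjusted p = 0.00913). It is overlapped by Gm28035 on its own strand and by 1700084E18Rik on the other. Its bins held 25.3% to 35.8% of the gene-table level in the controls and 26.7% to 30.4% on MCD, and gave a log2 ratio of 0.53.

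Rhou, an atypical small GTPase related to Cdc42 (chr8:123653929-123663884, plus strand), was at 18.7, 19.5 and 16.7 CPM in the controls and at 27.2, 31.7 and 26.1 CPM on MCD. The groups were separated by more than the spread within either, with a log2 change of 0.63 ± 0.12 (adjusted p = 0.0403, 0.0688 with the block). Tob2, an antiproliferative protein that binds the CCR4-NOT deadenylase (chr15:81848272-81858796, minus strand), was at 29.3, 23.2 and 25.2 CPM in the controls and at 41.6, 40.9 and 38.4 CPM on MCD. Its log2 change was 0.64 ± 0.13 (adjusted p = 0.0414), and the 3 MCD libraries lay close together.

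Agt encodes angiotensinogen, the precursor of the angiotensin peptides, which astrocytes make in the brain. It lies on the minus strand at chr8:124556534-124569706. It was at 207.7, 231.6 and 227.3 CPM in the controls and at 320.8, 258.5 and 345.2 CPM on MCD, the smallest log2 change of the 7 at 0.47 ± 0.09 (adjusted p = 0.0414, 0.0688 with the block). MCD 2 lay closest to the controls. In the summed exon bins all 7 genes kept their order, with every MCD library above every control, and log2 ratios of 0.32 (Rnf8) to 1.08 (Txnip). The bins recount the same libraries in which these 7 did not overlap, so this is no independent support. Of the 76 named genes, 24 were higher without overlap in the bins.

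The bases before the RefSeq start sites of these 7 genes and of Mat2a were searched on both strands for 6 motifs, because glucose, cyclic AMP, glucocorticoids, amino acid supply and the clock are known to act through them. The motifs were the E-box CACGTG, the carbohydrate response element of 2 copies of CACGNG with 5 bases between them, the glucocorticoid response element of AGAACA and TGTTCT with 3 bases between them, the cyclic AMP response element TGACGTCA, the D-box TTANGTAA and the amino acid response element TGATGNAA. A carbohydrate response element can contain an E-box, which that of Txnip does not. Of the 32851 windows of 250 bases before RefSeq starts, 6.02%, 0.0457%, 0.00913%, 1.55%, 2.06% and 3.45% held a match, in that order. Txnip held the carbohydrate response element, which 15 of all windows held. Lrrc8a held an E-box and a cyclic AMP response element. The other 6 genes held none of the 6 motifs in these windows, which says only that these letters are not there. Both promoters with a match are shown from RefSeq (GRCm38.p6, plus strand, 5′ to 3′) with the matched bases in capitals, Txnip at chr3:96557707-96557956 and Lrrc8a at chr2:30237519-30237714, where the sequence stops before the annotated gene.
Txnip: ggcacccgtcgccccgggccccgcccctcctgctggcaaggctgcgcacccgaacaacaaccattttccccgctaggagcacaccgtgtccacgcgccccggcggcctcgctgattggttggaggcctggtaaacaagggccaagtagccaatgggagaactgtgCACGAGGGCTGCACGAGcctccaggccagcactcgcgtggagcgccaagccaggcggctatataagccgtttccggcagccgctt
Lrrc8a: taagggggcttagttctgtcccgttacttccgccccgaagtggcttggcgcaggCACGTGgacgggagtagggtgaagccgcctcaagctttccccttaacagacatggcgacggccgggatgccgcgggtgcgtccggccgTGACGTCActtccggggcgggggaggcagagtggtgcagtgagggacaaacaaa

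Next by unadjusted p among higher genes was Ly6c1, an endothelial surface protein, with a log2 difference of 0.97 ± 0.21 (adjusted p = 0.102). It was at 12.6, 11.3 and 19.8 CPM in the controls and at 24.8, 22.1 and 38.8 CPM on MCD, with the female the highest in each group. Among lower genes, none of which passed, the 8 with the lowest p were Lgi2, Sox2ot, Snx10, 9330102E08Rik, H2bu2, Acyp1, Oma1 and Rita1, with log2 differences of -1.08 to -0.34 and groups that did not overlap. Lgi2, a secreted leucine-rich repeat protein of synapses, was at 33.6, 36.1 and 29.3 CPM in the controls and at 21.2, 25.9 and 13.6 CPM on MCD (log2 difference -0.71 ± 0.16, adjusted p = 0.166). Sox2ot, the long non-coding transcript that spans Sox2, was at 75.7, 77.1 and 70.2 CPM in the controls and at 59.2, 56.8 and 60.3 CPM on MCD (log2 difference -0.34 ± 0.08, adjusted p = 0.166). DESeq2 called both of these, as well as Snx10, 9330102E08Rik and the higher gene Ly6c1 (adjusted p = 0.00783 for Ly6c1). Without MCD 2, edgeR called Ly6c1 too (adjusted p = 0.0435).

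Whether the diet effect at CT04 differed from that at the other times was tested in the same model, as the effect at CT04 minus the mean effect at the other 5 times. Of 15759 genes 2 (0.0127%) passed, Rnf8 and Mat2a, and 727 (4.61%) had an unadjusted p under 0.05. For Rnf8 the difference between times was 1.12 on the log2 scale (adjusted p = 0.0113). Its control mean was lowest at CT04, 18.1 ± 2.94 CPM against 28.4 to 35.2 CPM at the other times, and its MCD mean of 38.7 ± 4.06 CPM compared with 27.5 to 37.6 CPM. The low control value was not tested on its own. Lrrc8a had a like form, with a control mean of 54.4 CPM at CT04 against 67.5 to 80.4 CPM at the other times, but its difference between times did not pass (0.59, adjusted p = 0.0666). It passed in 3 of 17 alternatives: with DESeq2 (adjusted p = 0.0014), without control 1 (0.72, adjusted p = 0.0145) and without MCD 2 (0.69, adjusted p = 0.0211).

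Mat2a differed between times in the other direction, by -0.93 on the log2 scale (adjusted p = 0.0113). At CT04 it was at 169.9, 165.6 and 156.5 CPM in the controls and at 109.2, 113.1 and 135.6 CPM on MCD, with no overlap. The log2 difference at CT04 alone was -0.46 ± 0.14 and did not pass (adjusted p = 0.547). At CT08 the values were 147.7 ± 9.43 and 111.3 ± 13.8 CPM (log2 difference -0.41, adjusted p of 1.00). At CT16 and CT20 the MCD means were 295.9 and 295.7 CPM against 132.2 and 138.1 CPM, which are log2 changes of 1.16 and 1.10. CT04 lay among the times at which the MCD mean of Mat2a was below that of the control diet.

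**Figure D2:**
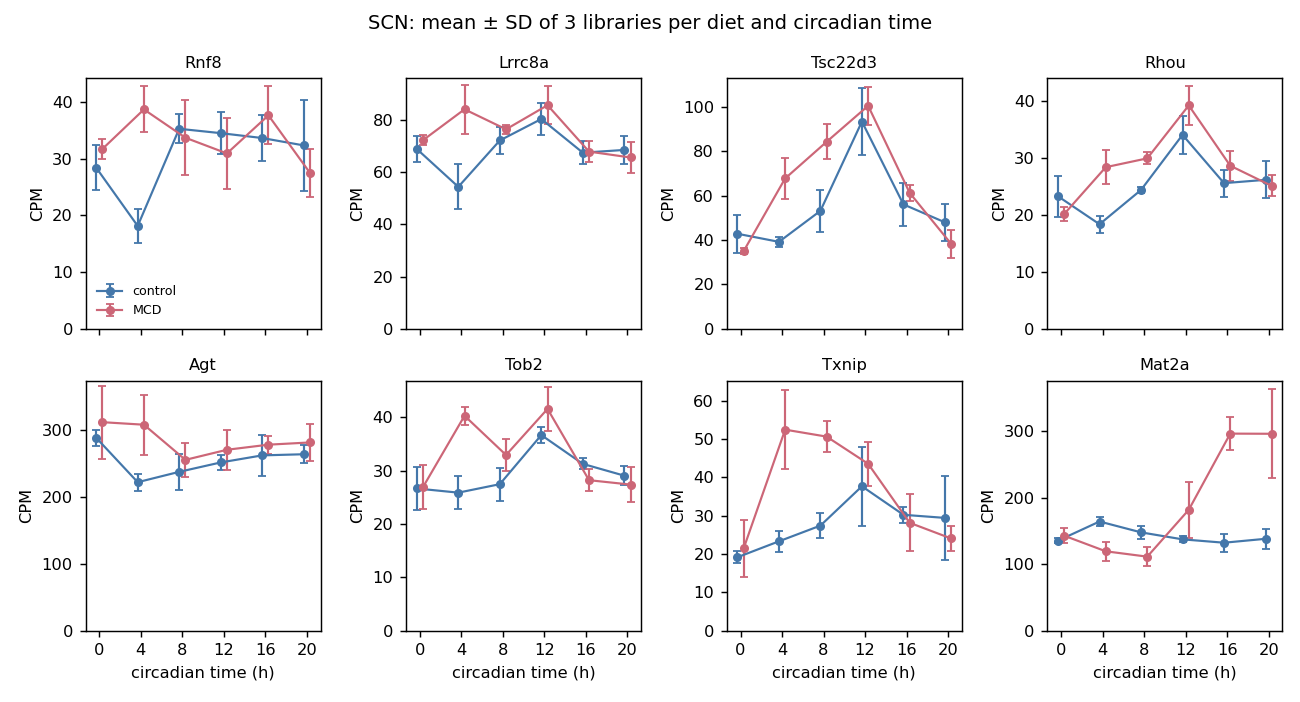
Mean level in CPM (vertical axis, bars ± SD, 3 libraries per point) of the 7 genes called at CT04 and of Mat2a over the 6 circadian times (h, horizontal axis), by diet. All 7 have a higher MCD mean at CT04 and all but Rnf8 also at CT08, by most in Txnip and Tsc22d3; Mat2a is lower on MCD at CT04 and higher at CT16 and CT20.

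At the next time, 6 of the 7 genes (all but Rnf8) had a higher mean on MCD, with log2 differences of 0.08 (Lrrc8a) to 0.89 (Txnip). At CT08 Tsc22d3 was at 53.2 ± 9.37 CPM on the control diet and 84.4 ± 7.88 on MCD (log2 difference 0.67 ± 0.14), and Txnip at 27.4 ± 3.29 and 50.6 ± 4.04 CPM (0.89 ± 0.23). Rhou and Tob2 differed by 0.30 ± 0.12 and 0.26 ± 0.12. None of the 7 passed at CT08, where no gene was called. For neither Tsc22d3 nor Txnip did the difference between the effect at CT04 and the mean of the other times pass the edgeR test (adjusted p = 0.239 and 0.518), though DESeq2 called Tsc22d3 (0.73, adjusted p = 0.0131). For Rhou, Tob2 and Agt it did not either (adjusted p = 0.370, 0.326 and 0.659). The number of genes called at CT00, CT04, CT08, CT12, CT16 and CT20 was 1, 7, 0, 0, 1 and 1, with 748, 859, 282, 328, 311 and 1016 at an unadjusted p under 0.05.

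Tsc22d3 belongs to a list of 21 genes that glucocorticoids are known to induce, and was the only one of the 19 measured that passed (0.0444% of all genes did). Of the 19, 17 had a log2 difference above 0 and 2 below, with a median of 0.22 against -0.0013 over all genes. The groups did not overlap in 8, all higher, where 4.16% of all genes were higher without overlap. An unadjusted p under 0.05 was reached by 8, also all higher, where 2.87% of all genes were higher at that p. Klf15, a transcription factor of fasting metabolism, was at 19.1, 24.1 and 27.1 CPM in the controls and at 37.8, 35.2 and 37.4 CPM on MCD (log2 difference 0.66 ± 0.18, adjusted p = 0.434). Sult1a1, a phenol sulfotransferase, was at 4.81, 5.19 and 3.31 CPM and at 8.70, 7.27 and 20.1 CPM (1.24 ± 0.34, adjusted p = 0.451), with MCD 3 far above the others.

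The metallothioneins of that list, Mt1 and Mt2, which bind zinc and copper, had log2 differences of 0.51 ± 0.18 and 0.58 ± 0.21 (adjusted p = 0.675 and 0.685), and MCD 3 was again the highest, at 447.5 and 268.9 CPM. Mertk, a receptor for phagocytosis in glia, was at 7.52 to 9.25 CPM in the controls and at 13.6 to 17.7 CPM on MCD. Klf9 and Plin4 were also higher without overlap, with log2 differences of 0.21 ± 0.11 and 1.30 ± 0.43 (adjusted p = 0.919 and 0.660), and the other 11 measured members overlapped between the diets. Fkbp5, the co-chaperone of the glucocorticoid receptor, was at 22.0, 22.4 and 24.5 CPM in the controls and at 26.5, 23.5 and 23.5 CPM on MCD, overlapping, with a log2 difference of 0.09 ± 0.14. Sgk1, a kinase, was at 8.82 to 12.8 CPM and at 9.96 to 17.0 CPM, also overlapping. Without both CT04 females, 17 of the 19 were still above 0, with a median of 0.39, and 5 had an unadjusted p under 0.05. In that fit 318 of all 15759 genes had such a p. The median over all genes was between -0.016 and 0.0072 in every fit. Leaving out both females was chosen after seeing the data.

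**Figure D3:**
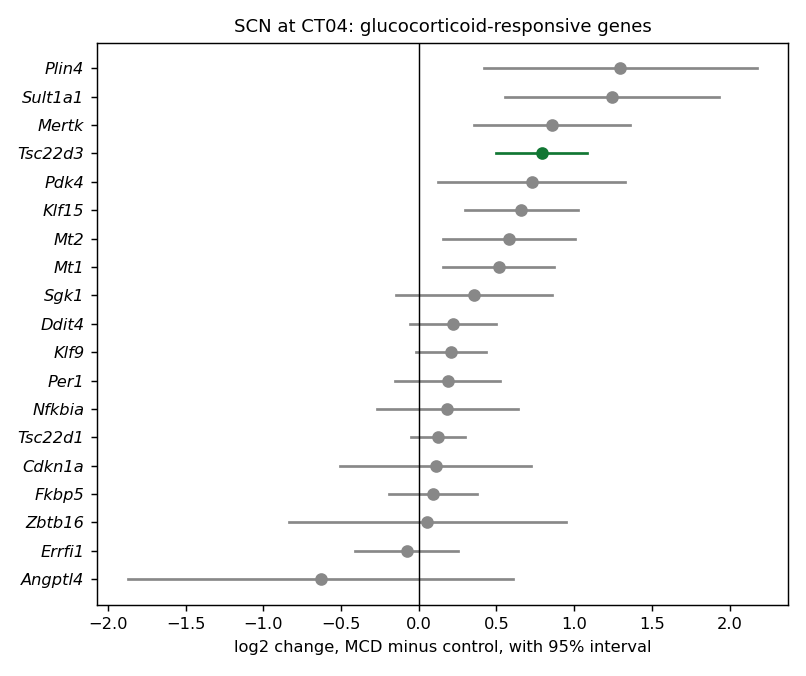
Log2 change from control to MCD at CT04 (horizontal axis) with its 95% interval for the 19 measured genes of the glucocorticoid-responsive list. Tsc22d3, in green, passed the test over all genes and the genes in grey did not; 17 of the 19 points lie to the right of 0.

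Txnip stood in a list of 17 genes of fasting and thyroid hormone response in brain, of which 16 were measured, 1 passed (0.0444% of all genes did) and 8 lay on each side of 0. Of the 16, 4 were higher and 2 lower without overlap, against 4.16% and 3.9% of all genes. Hr, a corepressor of the thyroid hormone receptor, was at 21.0, 13.9 and 12.1 CPM in the controls and at 40.9, 33.6 and 32.6 CPM on MCD (log2 difference 1.17 ± 0.40, adjusted p = 0.675). Slc16a1, the lactate and ketone body carrier MCT1, was lower without overlap, at 34.1 to 40.5 CPM in the controls and 26.6 to 31.8 CPM on MCD (-0.31 ± 0.12, adjusted p = 0.719).

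None of 20 clock genes passed, where 0.0444% of all genes did. Among the activators, Arntl was at 48.0, 44.1 and 30.0 CPM in the controls and at 44.8, 36.6 and 41.5 CPM on MCD, a log2 difference of 0.01 (95% interval -0.30 to 0.32). Clock itself differed by -0.05 (-0.42 to 0.32). Among the repressors, Per1 was at 146.3, 114.8 and 123.3 CPM in the controls and at 165.7, 147.3 and 125.1 CPM on MCD, a difference of 0.19 (-0.15 to 0.52). Per2 differed by 0.25 (-0.14 to 0.64), Per3 by 0.17 (-0.12 to 0.47) and Cry2 by 0.18 (-0.04 to 0.39), all with overlapping groups.

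Cry1, the repressor that closes the feedback loop late in the cycle, was the clock gene with the lowest p. It was at 50.3, 47.3 and 53.2 CPM in the controls and at 63.1, 60.6 and 62.6 CPM on MCD, without overlap, a difference of 0.30 (0.02 to 0.59, adjusted p = 0.896). Nr1d1 and Nr1d2, the REV-ERB repressors of Arntl, differed by -0.05 (-0.31 to 0.21) and -0.02 (-0.27 to 0.22). Of the output factors, Dbp differed by 0.15 (-0.22 to 0.51) and Tef by 0.15 (-0.06 to 0.36). These intervals do not show that the levels were equal.

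**Figure D4:**
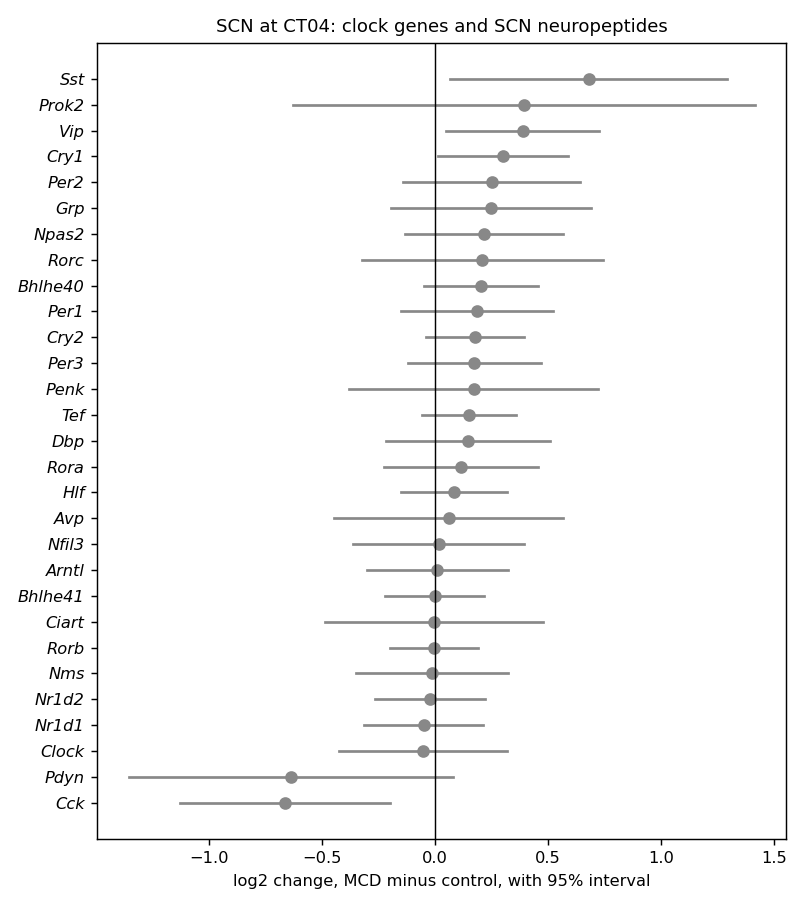
Log2 change from control to MCD at CT04 (horizontal axis) with its 95% interval for 20 clock genes and 9 neuropeptide genes of the SCN. All points are grey because none passed the test over all genes; the interval of Prok2 is among the widest, from -0.63 to 1.41, and those of Cry1, Vip, Sst and Cck exclude 0 before adjustment.

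None of the 15 SCN neuropeptide genes passed (0.0444% of all genes did), but 5 were higher and 3 lower without overlap (over all genes, 4.16% were higher and 3.9% lower without overlap). Vip, the peptide of the retinorecipient core, was at 841.9, 845.8 and 824.5 CPM in the controls and at 988.3, 1144 and 1158 CPM on MCD, a log2 difference of 0.39 ± 0.17 (adjusted p = 0.847). Sst, somatostatin, was at 92.5, 152.6 and 117.5 CPM and at 226.8, 177.3 and 175.9 CPM (0.68 ± 0.30, adjusted p = 0.862). Cck, cholecystokinin, was lower, at 126.1, 138.9 and 139.2 CPM in the controls and at 85.3, 90.4 and 80.5 CPM on MCD (-0.66 ± 0.23, adjusted p = 0.675). Within each diet the 3 Cck values lay close together.

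Prok2, a secreted output signal of the SCN, was at 83.4, 83.2 and 68.1 CPM in the controls and at 89.3, 116.3 and 104.0 CPM on MCD, with a wide interval for its log2 difference of 0.39 (-0.63 to 1.41). Avp, vasopressin of the shell, overlapped between the diets, at 781.1 to 974.0 CPM and 690.6 to 1085 CPM (0.06, -0.44 to 0.57). Vipr2, the VIP receptor VPAC2, was at 171.9 to 216.2 CPM in the controls and at 158.5 to 181.3 CPM on MCD (-0.19, -0.41 to 0.03). Lhx1, a transcription factor that SCN neurons need for coupling, was at 90.4, 75.0 and 75.3 CPM and at 118.0, 120.6 and 93.6 CPM (0.46 ± 0.21, adjusted p = 0.892).

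In the methionine and S-adenosylmethionine cycle none of 15 measured genes passed (0.0444% of all genes did), and 1 of the 15, Mat2a, was lower without overlap, a share near the 3.9% of all genes. Mat2b, its regulatory subunit, was at 53.8 to 59.4 CPM in the controls and at 53.9 to 78.0 CPM on MCD. Mettl16, the RNA methyltransferase known to act on Mat2a transcripts, was at 62.3, 56.3 and 44.4 CPM and at 59.9, 63.4 and 58.4 CPM (0.16 ± 0.10, adjusted p = 0.944). Ahcy, which clears S-adenosylhomocysteine, differed by 0.01 ± 0.10. Amd1, which takes S-adenosylmethionine into polyamine synthesis, was at 106.5 to 108.9 CPM in the controls and at 126.2 to 146.3 CPM on MCD (0.30 ± 0.10, adjusted p = 0.634), and was the 1 of 16 genes of methionine salvage and polyamines higher without overlap, a share near the 4.16% of all genes.

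Of 17 measured genes of choline and phosphatidylcholine metabolism, none passed. Chkb, a choline kinase, was at 17.4, 22.9 and 1.38 CPM in the controls and at 22.7, 22.3 and 33.96 CPM on MCD, and its log2 ratio was 4.53 between the female libraries and 0.16 between the males (0.92 ± 0.44 in the fit). In the exon bins the low value of control 3 was not seen: Chkb was at 5.402, 5.801 and 5.71 CPM of the bin total in the controls and at 6.55, 4.59 and 12.4 CPM on MCD, a female log2 ratio of 1.13, and its gene-table level is uncertain. Slc44a1, a choline transporter, was at 40.1, 42.4 and 48.6 CPM and at 39.1, 33.2 and 39.2 CPM (-0.23 ± 0.14, adjusted p = 0.938). Of 26 genes of the amino acid stress response none passed, and Atf4, its transcription factor, was at 143.0 to 153.9 CPM and at 151.4 to 225.0 CPM. Neither did any of the 18 m6A genes, the 31 genes of DNA and histone methylation, the 30 splicing regulators or the 28 genes of cholesterol and lipid synthesis pass. With 0.0444% of all genes passing, the lack of calls in these lists says nothing about them in particular.

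Nr4a1, an orphan nuclear receptor among 19 measured immediate-early genes, was at 20.1, 18.5 and 19.0 CPM in the controls and at 34.8, 31.8 and 35.99 CPM on MCD. The values within each diet were close, but its log2 difference of 0.83 ± 0.26 did not pass (adjusted p = 0.621). Ier5 went the other way, at 51.0 to 53.0 CPM in the controls and at 37.2 to 43.7 CPM on MCD (-0.36 ± 0.12, adjusted p = 0.665). Rbm3, an RNA-binding protein induced by cold, was at 49.1, 50.4 and 46.8 CPM and at 81.2, 64.3 and 105.1 CPM (0.78 ± 0.28, adjusted p = 0.696). The related Cirbp was at 100.1 to 138.5 CPM and at 135.7 to 184.8 CPM, overlapping.

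Marker genes of cell types were looked at beside these results, and of them only Agt passed. All 10 astrocyte markers were measured and none was at 0 in any library. Their summed level was 3750 to 4197 CPM in the controls and 4238 to 4914 CPM on MCD, and Agt is one of them. Without Agt the sum was 3519 to 3969 and 3979 to 4568 CPM, and without Agt and Glul it overlapped, at 2649 to 3113 and 2872 to 3297 CPM. Glul, the glutamine synthetase of astrocytes, was at 872.3, 870.4 and 856.4 CPM in the controls and at 1230, 1108 and 1271 CPM on MCD (0.47 ± 0.11, adjusted p = 0.222 in edgeR). DESeq2 called it (adjusted p = 0.0358). Of the 10 markers, 7 had a log2 difference above 0 and 3 below, with a median of 0.16 against -0.0013 over all genes, and Agt, Glul and Itih3 were higher without overlap, as were 4.16% of all genes. Gfap, the astrocyte filament protein, differed by 0.21 ± 0.12, and Gja1 and Aqp4, the gap junction protein and water channel among the 3 below 0, by -0.02 ± 0.09 and -0.12 ± 0.11; none of these 3 passed. Their part in the change of Agt was not tested, and in bulk RNA more (or fewer) cells of a type and more (or less) RNA per cell cannot be told apart.

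The 10 endothelial and pericyte markers, among them Ly6c1, summed to 205.1 to 238.8 CPM in the controls and 236.4 to 271.8 CPM on MCD, with 9 of 10 above 0 on the log2 scale. Without Ly6c1 the sums overlapped as well, at 193.8 to 218.9 and 214.3 to 247 CPM. Besides Ly6c1, only Pecam1 was higher without overlap (0.67 ± 0.19, adjusted p = 0.511 in edgeR), where 4.16% of all genes were. The 8 markers of fibroblasts and meninges summed to 60.9 to 106.1 and 117.1 to 143.8 CPM, and among them Slc6a13 and Lum were at 0 in a library. Ptgds, a prostaglandin D synthase, was at 34.001, 57.5 and 58.0 CPM in the controls and at 98.4, 74.0 and 77.5 CPM on MCD (0.74 ± 0.24, adjusted p = 0.652), and the other 7 overlapped, at 26.9 to 48.1 and 39.5 to 45.9 CPM in sum. The 5 erythrocyte markers summed to 109.5 to 199.4 and 63.8 to 140.9 CPM, all 5 with a log2 difference below 0 and Alas2 at 0 in a library. The 12 SCN neuron markers summed to 4071 to 4482 and 4518 to 5048 CPM, and Vip is 1 of the 12. Without Vip the sums overlapped, at 3225 to 3640 and 3360 to 3904 CPM. The 10 oligodendrocyte markers overlapped, at 1682 to 2154 and 1560 to 1908 CPM. The markers left out of these sums were chosen after their values were seen. The part of these cell types in the gene-level results was not tested.

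**Figure D5:**
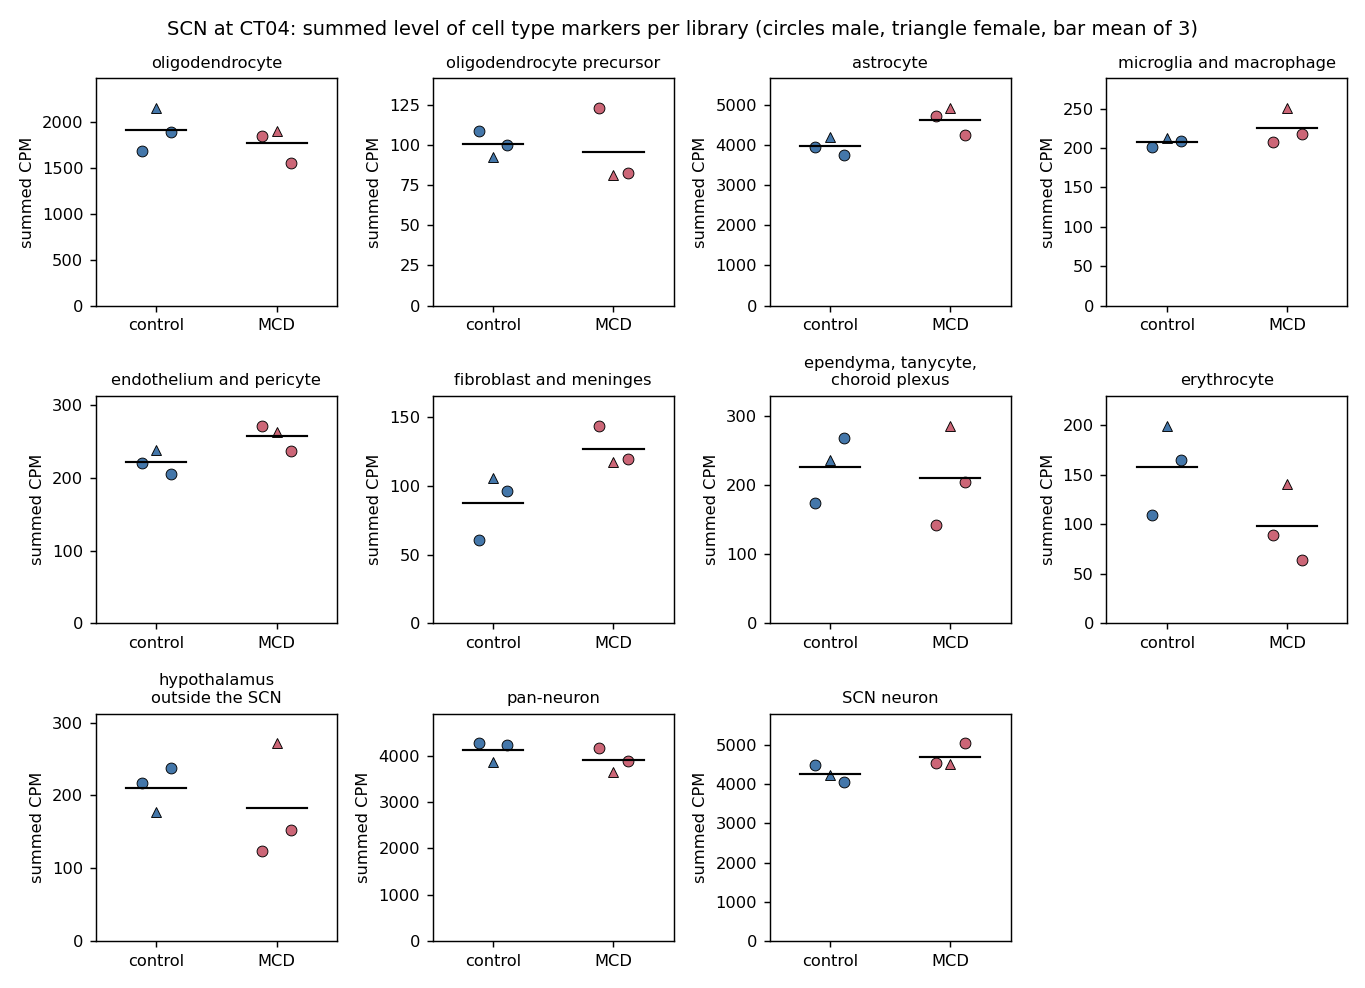
Summed level in CPM (vertical axis) of the markers of 11 cell types in each of the 6 CT04 libraries, by diet; circles are males, triangles females and bars the mean of 3. The sums of astrocyte, fibroblast and SCN neuron markers do not overlap between the diets, but overlap once Agt with Glul, Ptgds and Vip, in that order, are left out of them, and those of oligodendrocyte, erythrocyte and endothelial markers overlap as plotted.

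Exon usage, the share of a gene's counts that falls in each of its exon bins, was tested between the diets in the same 6 libraries. Of 13056 genes 1 passed (0.00766%), Hnrnpk, which encodes an RNA-binding protein of splicing and translation, and 55 (0.421%) had an unadjusted Simes p under 0.05. Bin 19 of Hnrnpk was lower on MCD relative to the gene by -2.32 on the log2 scale (adjusted p = 3.337e-05). It took 0.171%, 1.61% and 0.324% of the gene's counts in control 1, 2 and 3 and 0.0302%, 0.210% and 0% in MCD 1, 2 and 3, so that the groups overlapped and control 2 was far above the others. Without control 2 the value was -1.70 and without MCD 1 it was -1.98, neither of which passed (adjusted p of 1.00 both times), and the gene-level F test called none, with 74 genes at an unadjusted p under 0.05. Next in order were Kctd12b, Rpl3, Scx, Eef1a1 and Tcp1, none of which passed. In Rpl3, a ribosomal protein, the bin held 702 counts in control 1 and 0 to 22 in the other 5 libraries.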

How the data were processed

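Raw read counts per gene for 36 SCN libraries, and raw counts per exon bin in a file per library, were deposited by the authors, per the file headers. Trimmomatic, HISAT2, StringTie, DESeq2 and GRCm39 are named in the submitters' processing notes without roles; whether counting used the strand is not given in the sources used here. Positions came from GENCODE M21 (GRCm38), which held all 76 named genes.

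Genes were fitted with edgeR 4.0.16 in R 4.3.3 (TMM, minimum count 10, which left all 15759 genes) in 1 model of 12 diet-by-time groups and sex over 36 libraries. CPM use TMM-scaled totals. Exon usage was fitted with diffSpliceDGE on the 6 CT04 files, with diet and sex. Both fits were tested on simulated data, but the simulated exon bins varied less between libraries than the real ones, so that test gives little assurance. The median SE was 0.178 on the log2 scale. Replicates differed beyond counting noise (chi-square per degree of freedom at least 45.3). Alternatives used DESeq2 1.42.0 and limma 3.58.1, other normalizations, filters, covariates and left-out libraries; 2 were added after seeing the data.

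Deviations from the group means of same-numbered MCD and control libraries at CT04 correlated at 0.284, 0.133 and 0.255 for numbers 1, 2 and 3. Males with different numbers correlated at 0.204 (control 1 with MCD 2) and 0.133 (control 2 with MCD 1), and males with females at -0.273 to -0.149. The labels do not state a pairing. These deviations show none clearly either, as males with the same and with different numbers correlated alike and number 3 is the female. After the sex term the values for the same numbers were 0.100, -0.0306 and 0.0133. Of the control columns at CT08, 2 share a name, so the replicate block over all times used 34 libraries, and those on CT04 alone, exon usage included, used 6.

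Genes were named by rule: in each direction, called genes without overlap and with a mean of at least 1 CPM, topped up by p to 8; fixed clock, peptide and Mat2a genes; called members, or the 2 with the lowest p, of each gene list. Other genes named from the lists were chosen after their values were seen. Members and lists were chosen with earlier results of these data known.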

Additional observations from a re-analysis of the deposited data

Results flagged for a closer look

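For 2 genes the diet effect at CT04 differed from the mean effect at the other 5 times by a test of the difference itself. Rnf8 had a difference of 1.12 on the log2 scale (adjusted p = 0.0113, edgeR quasi-likelihood F test), and every MCD library at CT04 was above every control library. Mat2a had a difference of -0.93 (adjusted p = 0.0113), and every MCD library at CT04 was below every control library. With 1 CT04 library left out in turn, the difference of Mat2a was -1.04 to -0.87 (adjusted p = 0.0162 to 0.145) and did not pass without control 1, 2 or 3 or MCD 1 or 2. That of Rnf8 was 1.00 to 1.24 (adjusted p = 0.0194 to 0.195) and did not pass without control 1 or 3 or MCD 3. The Rnf8 value rests on the gene table: in the summed exon bins its log2 ratio at CT04 was 0.32, and its gene table ratio exceeded the bin ratio by 0.77, the widest gap among the 76 named genes.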

How the results depend on the processing

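All 7 called genes kept their direction in each of 19 alternatives, and 64 of the 69 other named genes were called in none. The 7 had groups without overlap in these same libraries, so their kept direction was nearly fixed beforehand and is no support. The number of genes called at CT04 was 7. It was 20 with DESeq2, 4 with limma-voom, 3 with library totals alone, 2 without the sex term, 4 with the replicate block over 34 libraries, and 0 in each of 5 fits: only the 6 CT04 libraries, those with the replicate block, males only, without both CT04 females, and limma-voom with library quality weights (519, 449, 485, 318 and 618 genes at an unadjusted p under 0.05). The last 2 were chosen after seeing the data. Leaving out 1 library gave 0 to 8. For CT04 against the other times, 2 genes were called, 9 with DESeq2, 0 with males only (432 at an unadjusted p under 0.05) or quality weights (562), and 1 without both CT04 females (Mat2a); the replicate block left both called, and leaving out 1 library gave 0 to 3. For exon usage 1 gene was called, 0 with the gene-level F test, 2 without the sex term, 13 without both CT04 females, 1 with the replicate block, and 0 to 11 without 1 library. The cause was not tested. The female libraries at CT04 were shallower, at 25.26 and 27.53 M counts.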

Other observations

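The liver libraries of the same circadian time, 3 per diet, entered no comparison here, and their values are given without a test. Mat2a was at 63.2, 62.3 and 61.8 CPM of the liver totals on the control diet and at 120.1, 176.5 and 167.3 CPM on MCD, the opposite order to that in the SCN at CT04. Tob2 was at 31.9, 33.6 and 45.2 CPM and at 65.8, 60.8 and 45.4 CPM. Txnip was at 74.1, 84.5 and 77.8 CPM and at 72.8, 76.7 and 210.8 CPM, with the MCD female alone above the controls. Tsc22d3 overlapped between the diets in liver, at 35.0 to 41.0 CPM and 24.1 to 48.5 CPM. Rnf8 overlapped as well, at 8.18 to 11.6 CPM and 7.62 to 9.15 CPM. Mt1 was at 3.87, 5.23 and 34.1 CPM and at 181.0, 67.2 and 77.9 CPM.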
